A study of Rattus norvegicus with 6 samples.

Results

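S100a8 (ENSRNOG00000011557), S100a9 (ENSRNOG00000011483) and Lcn2 (ENSRNOG00000013973) are 3 genes best known for their abundance in neutrophils. Here they were measured in macrophages sorted from the infarcted heart of WT and Dusp6-deficient rats. The members were taken by their identifiers, and all 3 were found among the 33884 genes of the count table. The table lists no symbols, so the pairing of these identifiers with the names was taken as given and was not checked here.

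S100A8 and S100A9 are small calcium-binding proteins that pair as calprotectin, a heterodimer that fills the neutrophil cytosol, binds zinc and manganese, and acts as an alarmin on TLR4 and RAGE once it is released from damaged or activated cells. Lcn2 encodes lipocalin-2, a granule protein of neutrophils that withholds iron by capturing bacterial siderophores. Monocytes and macrophages can also make all of these proteins under inflammatory stimulation, and C/EBP and NF-κB factors are known activators of the genes.

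The study was mainly about neutrophils and the loss of DUSP6, a phosphatase that acts on ERK1/2, after myocardial infarction (MI), and these libraries compared macrophages of the infarcted heart between the genotypes. RNA-seq was done on CD45+ HIS36+ cells at 72 h after permanent ligation of the left anterior descending artery in Sprague Dawley rats, where CD45 marks leukocytes and HIS36 is an antibody against rat macrophages. The MI model used male rats of 8 to 10 weeks, per the study's methods. The groups were WT (n = 3) and Dusp6-/- (n = 3, called Dusp6-deficient), a germline mutation by a single-base insertion that creates a premature stop codon, which is carried by every cell type of the rat and not by the macrophage alone. Nothing in the labels says that the libraries came from separate rats, and the p-values then measure only the spread between these libraries. The summed gene counts of WT replicates 1, 2 and 3 were 15806508, 16467086 and 12089585. Those of the Dusp6-deficient replicates were 17274938, 14183096 and 14124625. The level of Dusp6, the markers of macrophages and the defining markers of neutrophils need symbols for other identifiers and were not analysed here. The genotype and the purity of each library were therefore not checked.

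Lcn2 was detected in every WT library and in no Dusp6-deficient library, while S100a8 and S100a9 were detected in all 6. Mean Lcn2 was lower in Dusp6-deficient macrophages, by at least 124-fold against a floor of 3 counts per library. This bound takes the WT mean as measured and does not cover the spread of the WT libraries. Lcn2 was the member that passed the test (1 of 3 members called lower). It entered the test through the WT libraries alone, so its call and the count of members called are descriptions and support nothing. The call was lost without any one library other than WT replicate 3 (adjusted p from 0.0557 to 0.142 in edgeR's test). It was also lost with a robust prior. Under the scaling of all 6 libraries, the mean of WT replicates 2 and 3 was at least 17.6-fold above the mean floor. Refitted without WT replicate 1, the log2 bound was -4.18. In the other fits that lost the call it ran from -7.42 to -6.86, against -6.95 in the main test. The mean levels of S100a8 and S100a9 were also lower in Dusp6-deficient macrophages, by 3.95-fold and 5.24-fold in the fitted model, but neither passed the test and their libraries overlapped between genotypes. A gene was called at an adjusted p under 0.05 (edgeR's quasi-likelihood test with Benjamini-Hochberg adjustment) and a log2 fold change over 1 in either direction. Of all 12756 genes tested, 2.16% were called lower and 3.47% higher in Dusp6-deficient macrophages. These shares rested on single libraries. Without Dusp6-deficient replicate 1, 968 genes were called lower and 1084 higher, against 275 and 442 with all 6. Without any one of the other libraries, at most 80 were lower and 68 higher. They also depended on the test, since DESeq2 called 657 genes lower and 641 higher with all 6 libraries. In bulk RNA, fewer cells of a type and less RNA per cell cannot be told apart, and which cell type the reads of these genes came from was not tested.

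Levels are given as CPM, the count of a gene scaled to the library total with TMM factors (an edgeR method that corrects library sizes), which compares one gene between libraries. It does not correct for gene length, so the levels of different genes are not compared. S100a8, which encodes a subunit of calprotectin, had 59.1, 28.8 and 3.42 CPM in WT replicates 1, 2 and 3, from 997, 499 and 47 counts. It had 2.86, 13.8 and 6.64 CPM in Dusp6-deficient replicates 1, 2 and 3, from 50, 171 and 83 counts. WT replicates 1 and 2 stood above every Dusp6-deficient library, whereas WT replicate 3 lay below Dusp6-deficient replicates 2 and 3. The exact 95% Poisson interval of WT replicate 3, 2.51 to 4.55 CPM, overlapped that of Dusp6-deficient replicate 1, 2.12 to 3.77 CPM. These intervals cover counting error only. S100a8 averaged 30.4 ± 27.9 CPM in the WT group and 7.76 ± 5.55 CPM in the Dusp6-deficient group (SD, n = 3 each). The log2 fold change was -1.98 (standard error 0.87, 95% interval -3.95 to -0.02) and did not pass (edgeR's quasi-likelihood test, adjusted p = 0.160).

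S100a9, which encodes the partner subunit, had 93.7, 46.1 and 9.17 CPM in WT replicates 1, 2 and 3, from 1579, 799 and 126 counts. It had 4.63, 19.3 and 4.72 CPM in Dusp6-deficient replicates 1, 2 and 3, from 81, 239 and 59 counts. WT replicate 1 was again the highest and WT replicate 3 the lowest of the WT libraries, and the groups overlapped, since WT replicate 3 lay above Dusp6-deficient replicates 1 and 3 and below replicate 2 alone. S100a9 averaged 49.6 ± 42.4 CPM in the WT group and 9.54 ± 8.43 CPM in the Dusp6-deficient group (SD, n = 3 each). The log2 fold change was -2.39 (standard error 0.81, 95% interval -4.23 to -0.54), with adjusted p = 0.0941 from edgeR's test. The gene passed both thresholds with no filter on low counts (adjusted p = 0.0416 from edgeR's test), and its adjusted p ran from 0.0416 to 0.133 over the 8 settings that kept all libraries. Among the 12756 genes tested, 88 had a log2 fold change as low as that of S100a9, and 51 of these had an adjusted p under 0.05.

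Lcn2 had 73.3, 6.23 and 1.46 CPM in WT replicates 1, 2 and 3, from 1236, 108 and 20 counts. It had 0 counts in each of Dusp6-deficient replicates 1, 2 and 3, where 3 counts, taken as the limit that a count of 0 allows, correspond to 0.172, 0.242 and 0.240 CPM. The upper ends of the two-sided exact 95% Poisson intervals of these libraries were higher, at 0.211, 0.297 and 0.295 CPM, and folds against the floor would be smaller against them. The genotypes did not overlap, and the lowest WT library, with an interval of 0.889 to 2.25 CPM, lay above both limits. Every WT library lay above every Dusp6-deficient library for 16.3% of all genes tested, and for 1 of the 3 members. The mean in WT was 27.0 ± 40.2 CPM (SD, n = 3). Adjusted p was 0.0428 with edgeR's test, and ran from 0.000449 with DESeq2 to 0.0854 over the 7 other settings that kept all libraries. Lcn2 passed the filter on low counts only through the group where it was high, and with no such filter its adjusted p was 0.00700 from edgeR's test.

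The size of the fall in Lcn2 rested on WT replicate 1. Measured against the mean floor of the Dusp6-deficient libraries, Lcn2 was at least 337-fold higher in WT replicate 1, at least 28.6-fold higher in WT replicate 2 and at least 6.68-fold higher in WT replicate 3. The adjusted p from edgeR's test was 0.0578 without WT replicate 1, 0.0781 without WT replicate 2, and 0.0557, 0.115 and 0.142 without Dusp6-deficient replicates 1, 2 and 3. The call was kept without WT replicate 3 (adjusted p = 0.0445). The robust prior in edgeR (adjusted p = 0.0854) was chosen after seeing the data.

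**Figure D1:**
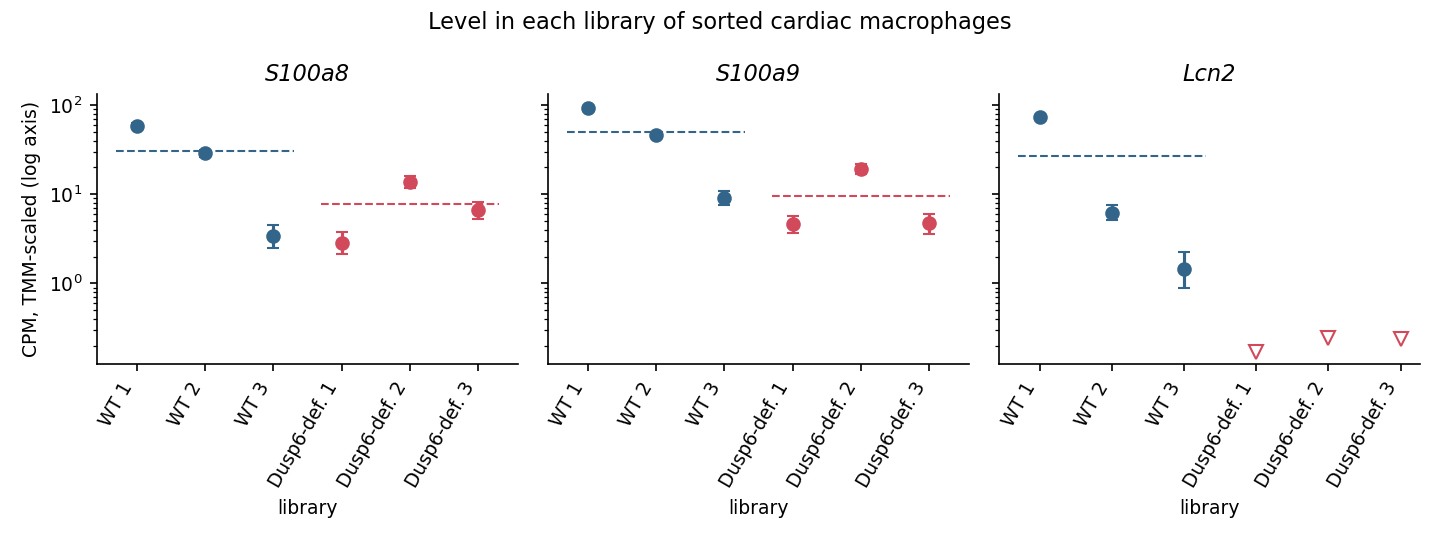
TMM-scaled CPM (log axis) of S100a8, S100a9 and Lcn2 in each of the 3 WT (blue) and 3 Dusp6-deficient (red) libraries. Bars are exact 95% Poisson intervals, dashed lines are group means, and open triangles mark the limit of 3 counts where the count was 0, as for Lcn2 in every Dusp6-deficient library. All 3 genes are highest in WT replicate 1 and, among the WT libraries, lowest in WT replicate 3.

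Of the 12756 genes tested, 6 had 0 counts in every Dusp6-deficient library, and Lcn2 ranked 3 among these by mean CPM in WT. Of the 4692 genes with a WT mean at least that of Lcn2, 3 were at 0 in every Dusp6-deficient library. With at least 20 counts in every WT library and 0 in every Dusp6-deficient library, a limit chosen after the values were seen and equal to the lowest WT count of Lcn2, 5 genes were found, or 0.0392% of those tested. Lcn2 meets this limit by construction, so these counts describe the table and carry no support for the difference. In the opposite direction, 0 of the genes tested had 0 counts in every WT library.

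The WT libraries differed from each other far more for these genes than for most. Between WT replicates 1 and 3, CPM differed 17.3-fold for S100a8, 10.2-fold for S100a9 and 50.4-fold for Lcn2. A ratio of WT replicate 1 to WT replicate 3 at least as large was found for 35, 63 and 20 of the 12756 genes, respectively. The SD of log2(CPM + 0.5) over the WT libraries was 2.04 for S100a8, 1.68 for S100a9 and 2.66 for Lcn2, against a median of 0.24 over all genes tested. A WT spread at least as large was found for 36, 80 and 11 of the 12756 genes, respectively. The Dusp6-deficient libraries also spread for the S100 genes, by 4.82-fold for S100a8 and 4.16-fold for S100a9 between the highest and the lowest library, with replicate 2 the highest for both.

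**Figure D2:**
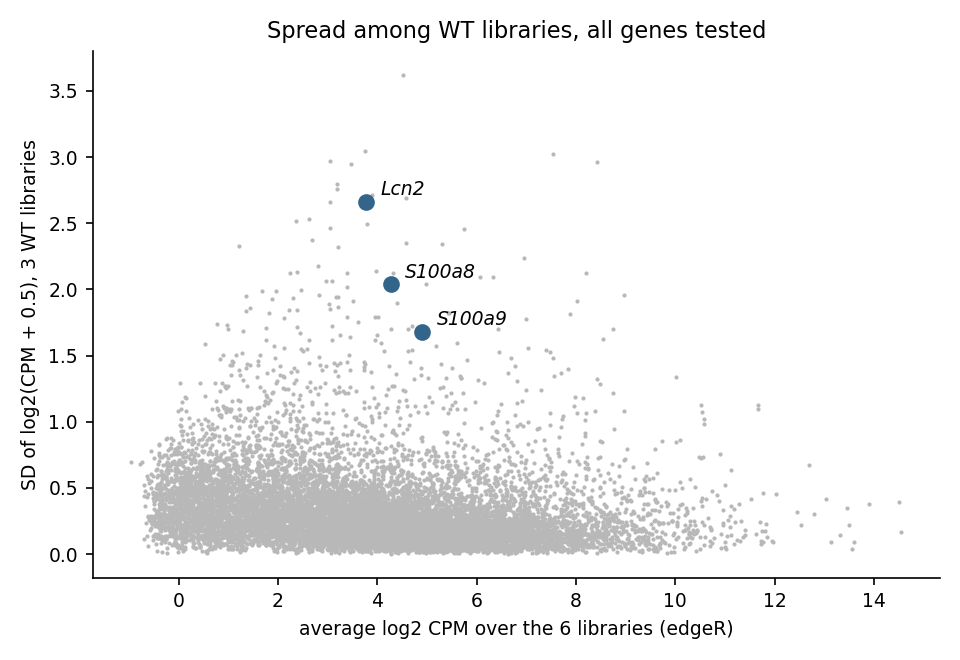
SD of log2(CPM + 0.5) over the 3 WT libraries against the average log2 CPM of each of the 12756 genes tested (grey points), with the 3 alarmin genes in blue. The alarmin genes lie between 1.68 and 2.66, far above the median of 0.24.

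The proportions of the 3 genes within a library do not depend on how libraries are scaled. S100a8 made up 38.7%, 38.4% and 27.2% of the S100a8 and S100a9 counts in WT replicates 1, 2 and 3. It made up 38.2%, 41.7% and 58.5% in Dusp6-deficient replicates 1, 2 and 3. The proportion was alike in 4 libraries, lower in WT replicate 3 and higher in Dusp6-deficient replicate 3. The exact (Clopper-Pearson) 95% interval was 20.7% to 34.4% for WT replicate 3 and 49.9% to 66.7% for Dusp6-deficient replicate 3. That of Dusp6-deficient replicate 1, 29.8% to 47.1%, overlapped that of WT replicate 3. These binomial intervals also cover counting error only. The log2 ratio of S100a8 to S100a9 averaged -0.92 ± 0.43 for WT against -0.23 ± 0.63 for Dusp6-deficient libraries (SD, n = 3 each). A two-sided exact permutation test gave p = 0.3, where 0.1 is the smallest p that 3 against 3 libraries allow. The log2 difference of 0.69 rested on single libraries. It was 0.33 without Dusp6-deficient replicate 3, 0.44 without WT replicate 3 and as large as 0.93 without Dusp6-deficient replicate 1.

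Lcn2 did not keep one proportion to the S100 pair. Per 100 counts of S100a8 and S100a9 together, there were 48.0, 8.32 and 11.6 counts of Lcn2 in WT replicates 1, 2 and 3. There were 0 in each Dusp6-deficient library, with limits of 2.29, 0.732 and 2.11 per 100 at 3 counts of Lcn2. The limits all lay below the lowest WT library. With counts of 0 set to 3, the log2 ratio of Lcn2 to the S100 pair averaged -2.59 ± 1.34 for WT against -6.04 ± 0.92 for Dusp6-deficient libraries (SD, n = 3 each). With this floor the mean ratio was at least 10.9-fold lower in Dusp6-deficient macrophages, and lower in all 3 libraries than in any WT library (two-sided exact permutation test, p = 0.1, the smallest this design allows). This p cannot pass 0.05, and the Dusp6-deficient ratios are set by the floor and the S100 counts, so the ratio is given as a description. The size depended on WT replicate 1 and on the floor, since the log2 difference was -3.45 with all libraries, -2.69 without WT replicate 1 and -2.71 with a floor of 5 counts, which was chosen after seeing the data.

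**Figure D3:**
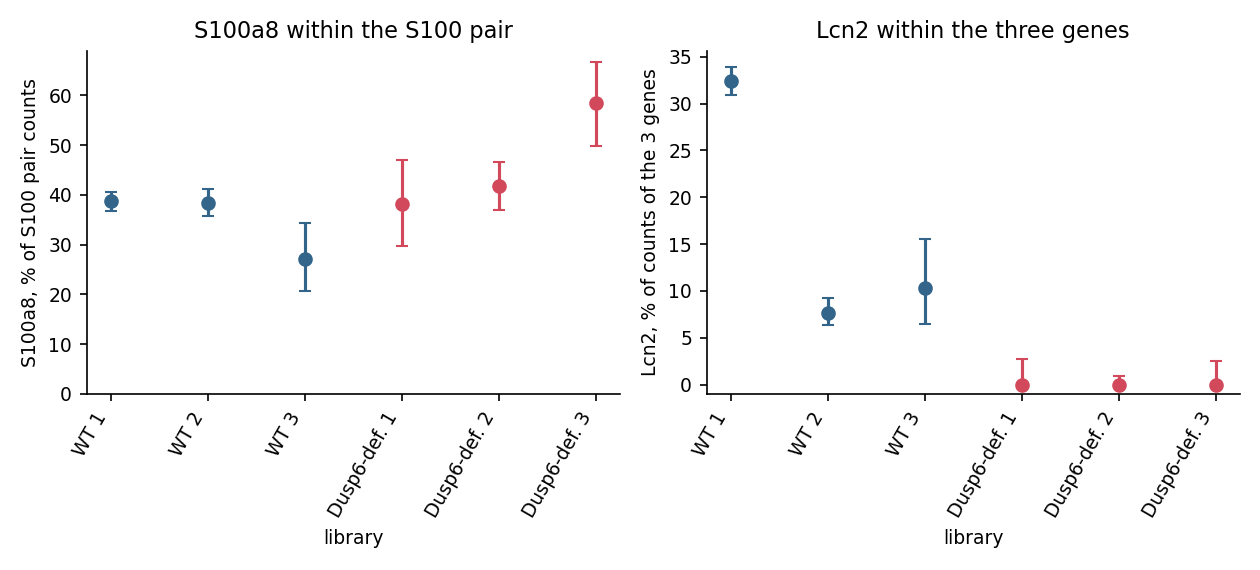
Left, S100a8 as a percent of S100a8 and S100a9 counts in each library. Right, Lcn2 as a percent of the counts of all 3 genes. Bars are exact 95% binomial intervals, with WT in blue and Dusp6-deficient in red. The S100 proportion is 38.2% to 41.7% in 4 libraries, and the Lcn2 proportion is 0% in every Dusp6-deficient library against 7.68% to 32.4% in WT.

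Likeness of pattern was measured by Pearson's r of log2 CPM over the 6 libraries, as a description. Between S100a8 and S100a9 r was 0.94, and each ranked 19 among the 12755 other genes by likeness to its partner. Lcn2 had r = 0.86 with S100a9 and r = 0.75 with S100a8, which ranked 534 and 1453 among the 12755 other genes by likeness to Lcn2, and 66 genes had r over 0.95 with it. The points share the same libraries and the same split by genotype. The values of Lcn2 include 3 libraries at 0, whose place on the log scale is set by the prior count. Other genes like the members are not named, since the files do not pair their identifiers with symbols.

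S100a8 and S100a9 are neighbours in the rat genome, with 0 listed genes lying wholly between them in the RefSeq annotation of GRCr8. Promoters are shown for the 2 of 3 members matched in the RefSeq promoter table, S100a9 and Lcn2, and not for S100a8. The 250 bases before the start site are given 5′ to 3′ from RefSeq (build GRCr8), at chr2:178490623-178490872 on the minus strand for S100a9 and at chr3:36081781-36082030 on the minus strand for Lcn2. Capitals mark matches to the motifs searched.

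S100a9: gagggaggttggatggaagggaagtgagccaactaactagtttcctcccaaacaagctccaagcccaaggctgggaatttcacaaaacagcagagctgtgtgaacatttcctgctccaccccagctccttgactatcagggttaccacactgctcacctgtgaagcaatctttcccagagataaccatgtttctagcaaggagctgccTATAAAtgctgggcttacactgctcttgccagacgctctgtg
Lcn2: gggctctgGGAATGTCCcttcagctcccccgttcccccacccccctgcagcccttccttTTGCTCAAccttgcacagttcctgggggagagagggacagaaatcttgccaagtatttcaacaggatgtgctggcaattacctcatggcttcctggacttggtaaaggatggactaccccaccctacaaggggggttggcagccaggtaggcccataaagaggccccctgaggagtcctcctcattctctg

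The letters searched on both strands were TTGCNNAA for C/EBP, GGNNNTTCC for NF-κB, TGANTCA for AP-1, TTCNNNGAA for STAT and TATAAA for a TATA box. The Lcn2 window held a C/EBP match, TTGCTCAA, at positions -191 to -184 counted from the start site, and an NF-κB match read on the other strand, at -242 to -234. The S100a9 window held the TATA box letters at -42 to -37 and none of the other letters. Of 33469 promoter windows of the same length, 9.22% held the C/EBP letters, 15.4% the NF-κB letters, 6.34% the AP-1 letters, 7.67% the STAT letters and 12.9% the TATA letters. A match is a description of letters and shows neither binding nor a cause, and a window without a match says nothing about the factor.

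The plot of fold changes by setting shows how far each value moved. Leaving out a library moved the log2 fold change of S100a8 between -2.71 (without Dusp6-deficient replicate 2) and -1.11 (without WT replicate 1), and the gene was called in 0 of these 6 fits (lowest adjusted p = 0.0591 from edgeR's test, without WT replicate 3). That of S100a9 lay between -3.42 (without Dusp6-deficient replicate 2) and -1.59 (without WT replicate 1), again with 0 of 6 fits called (lowest adjusted p = 0.0554, without WT replicate 3).

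**Figure D4:**
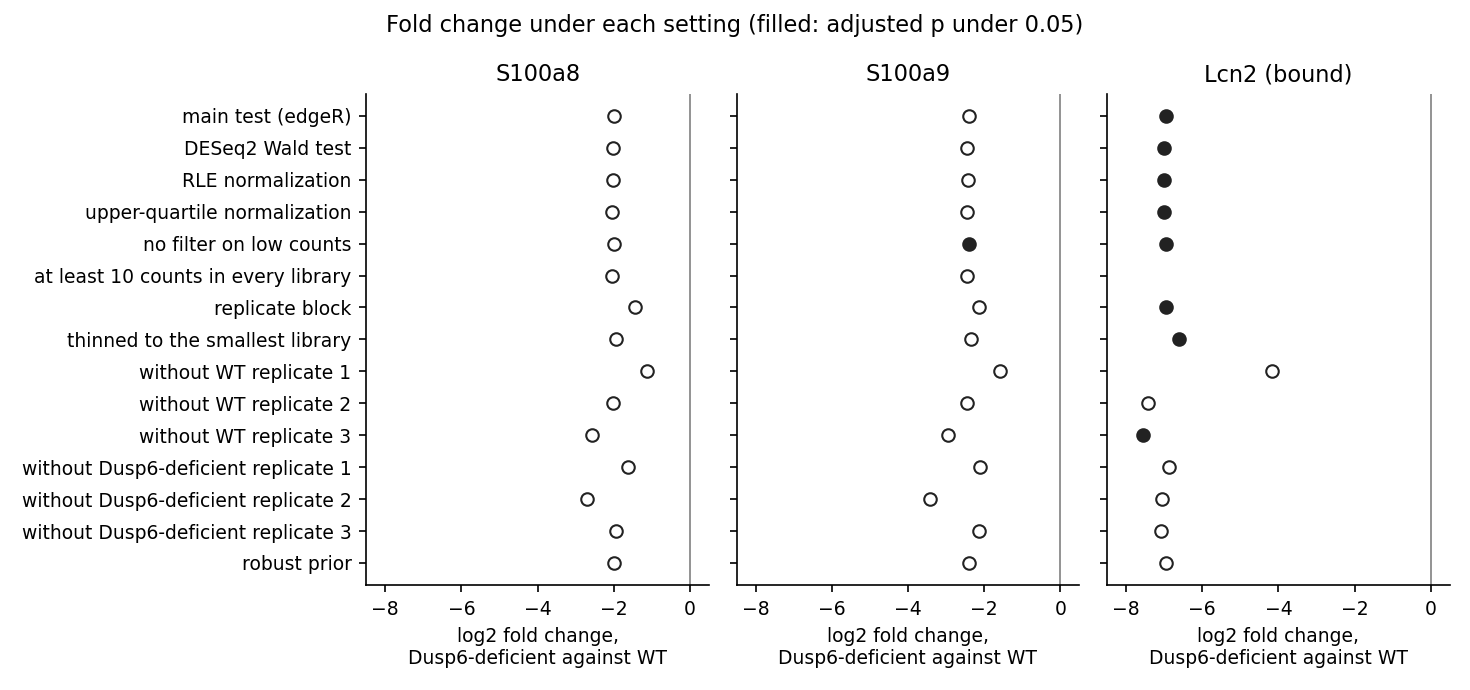
Log2 fold change of Dusp6-deficient against WT macrophages for S100a8 and S100a9, and the bound against 3 counts for Lcn2, under the main test and each alternative. Filled points have an adjusted p under 0.05. Every point lies below 0, which for Lcn2 was fixed by its counts of 0 in the Dusp6-deficient libraries. Leaving out WT replicate 1 brings each gene closest to 0. Lcn2 was not tested with at least 10 counts required in every library.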

How the data were processed

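Per the labels and the study's methods, reads were trimmed with Trim Galore, aligned to Rnor_6.0 with HISAT2 and counted per gene with featureCounts 1.5.0-p3. The deposited values are raw counts, 1 column per library, and all 6 columns were used. The annotation release, strand setting and handling of multi-mapping reads are not given in the sources used here.

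The main test was edgeR 4.0.16 (R 4.3.3, glmQLFit and glmQLFTest) with genotype as the term, after filterByExpr and TMM, with Benjamini-Hochberg adjustment over all 12756 genes tested. Standard errors were derived from the F statistic. DESeq2 1.42.0, which the study's methods name, and other normalizations, filters, thinning, a replicate block and leaving out each library were alternatives. The tests were checked on simulated data with planted log2 changes. None of these removed a gene from a genotype, and no library was set apart from its group. The simulation therefore does not cover a case like Lcn2. Log2 CPM for likeness used a prior count of 2.

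The members and lists were chosen with earlier results of these data known. The lists of neutrophil genes, alarmin receptors, transcription factors, cytokines, S100 genes, lipocalins, other alarmins, metal and oxidase genes and cell type markers, and Dusp6, could not be looked up, since 0 of the 47357 rows of the gene table carry an Ensembl identifier. They were not analysed here. The rule for named genes took the 3 members, Dusp6, the genes of the lists, and the 5 genes with a symbol and an average log2 CPM of 3 or more that were most like each member. Only the members had a symbol, so no other gene is named. The counts of genes at 0 in a genotype and those with as large a spread or fold change were added after the values were seen. Libraries of the same genotype differed by more than counting noise (chi-square per gene of 26.4 or more), so none was treated as another deposited again, which does not show that they came from separate rats. Dusp6-deficient replicate 1 differed most from its group, at 144 and 121 from replicates 2 and 3, which were at 26.4 from each other. Values within WT were 49.2 to 75.9.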

Additional observations from a re-analysis of the deposited data

How the results depend on the processing

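The direction of S100a8 and S100a9 was kept under every alternative run. That of Lcn2 could not have reversed, since its count was 0 in every Dusp6-deficient library. For Lcn2 the values are bounds against 3 counts, which ran from -7.56 to -4.18 on the log2 scale over the fits without one library, and the call was lost with the robust prior (-6.95, the same bound). S100a9 was called with no filter on low counts (-2.39). The genes called in all were 442 higher and 275 lower. No filter gave 422 lower, and no fold change threshold 708 higher. Without one library, 1 to 1084 were called higher and 5 to 968 lower, the most without Dusp6-deficient replicate 1. Why these counts differed was not tested. The calls were 348 higher and 345 lower with upper-quartile normalization, and 641 higher and 657 lower with DESeq2. The median log2 fold change of all genes stayed between -0.05 and 0.04.

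The labels link same-numbered libraries by number alone. Their deviations from the group means correlated across genes at 0.11, -0.12 and -0.14. The libraries numbered 1 correlated best with each other, and those numbered 2 and 3 did not correlate best with their own number. With so few libraries, these correlations cannot decide whether the libraries were paired. With the replicate block, 298 genes were called higher and 188 lower, the log2 fold change was -1.43 for S100a8 and -2.12 for S100a9, and Lcn2 had an adjusted p of 0.00401 from edgeR's test. The ratio of S100a8 to S100a9 kept its direction in each fit. That of Lcn2 to the S100 pair could not have reversed, since every WT ratio lay above every Dusp6-deficient limit. The log2 differences of these ratios ran from 0.33 to 0.93 and from -3.95 to -2.69, respectively, over the fits without one library. Lcn2 could not be fitted with at least 10 counts in every library, and the counts of called genes per gene list were not run. At this depth, a count of 0 limits the fall in Lcn2 to a bound.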
